A study of Mus musculus with 2 samples.

Results

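The ATF4 response and amino acid supply genes were 35 mouse genes chosen by symbol: the transcription factor ATF4, its partners and stress targets (12 genes), enzymes of amino acid synthesis (8), amino acid transporters (9) and cytosolic tRNA synthetases (6). All 35 symbols were found once among the 51912 gene rows, and all 35 had a mean of at least 1 CPM (read counts set to a common library total, with TMM factors), as did 13015 genes in all. Their levels were compared between 2 RNA-seq libraries of MEFs, fibroblasts grown in culture from mouse embryos, here of C57BL/6 background. In the UKS line both floxed copies of Usp16 had been deleted with adenovirus carrying Cre recombinase, and in the KS line Usp16 was wild type and the cells had received the same virus. The T antigen of SV40, which binds and disables p53 and RB, had been used to immortalize both. The question is how RNA levels differ between fibroblasts treated to delete Usp16 and fibroblasts with wild-type Usp16, and each line gave 1 library. Whether a line came from 1 clone, 1 embryo or a pool is not given in the sources used here.

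ATF4 is a basic leucine zipper transcription factor whose mRNA is translated more when the initiation factor eIF2 is phosphorylated by one of its kinases, among them GCN2 (gene Eif2ak4), which senses uncharged tRNA, and PERK (Eif2ak3), which senses unfolded proteins in the endoplasmic reticulum. ATF4 then binds, with C/EBP family partners, to C/EBP-ATF composite elements in genes that take up amino acids, make serine, glycine, proline and asparagine, and charge tRNAs. In fibroblasts these products feed protein and collagen synthesis, and ATF4 also switches on genes that limit the response, such as Trib3 and Ppp1r15a.

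The composite element was looked for as TGATGNAA on both strands of the RefSeq promoter windows, which run from 250 bases before to 50 bases after each start on GRCm38.p6. A window was found for 28 of the 35 genes and the letters were present for 9 of these (32.1%), against 4.51% of all 27025 genes with a window. For each of the 9 genes 1 match is shown, because it is the sequence the named regulator is known to read. Each is given 5′ to 3′ on the strand that reads TGATGNAA, with the match in capitals and 11 bases on each side. Such a match is a description of the letters and was not measured as a binding site.
Chac1: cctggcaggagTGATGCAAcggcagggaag
Nupr1: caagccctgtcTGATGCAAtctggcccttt
Pycr1: tgccctgtgtaTGATGCAAtgcacaaggct
Vldlr: gctaggagcgcTGATGCAActattgctgct
Slc1a4: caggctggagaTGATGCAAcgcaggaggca
Aars: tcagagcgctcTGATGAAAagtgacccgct
Asns: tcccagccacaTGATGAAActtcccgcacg
Gars: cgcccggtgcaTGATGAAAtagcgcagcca
Trib3: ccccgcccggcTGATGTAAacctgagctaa

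The Chac1 stretch lies at chr2:119351038-119351067 on the minus strand and its match begins 193 bases before the start. The Asns stretch is at chr6:7693214-7693243 on the minus strand, with the match 23 bases before the start. The Trib3 stretch is at chr2:152344028-152344057 on the plus strand, with a match that lies past the start. The Pycr1 stretch is at chr11:120643833-120643862 on the minus strand and the Nupr1 stretch at chr7:126625562-126625591 on the plus strand. Vldlr is matched at chr19:27216809-27216838 on the minus strand and Slc1a4 at chr11:20332699-20332728 on the plus strand. The Aars stretch is at chr8:111033840-111033869 and that of Gars is at chr6:55037960-55037989, both on the minus strand. The printed Aars match lies past the start. Aars also has a further match, TGATGCAA, 112 bases before the start. No window was in the table for Eif4ebp1, Slc7a3, Slc7a5, Slc1a5, Wars, Nars and Mars.

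Usp16, which encodes a deubiquitinase of histone H2A, had 459 counts in UKS and 1195 in KS, 2.30-fold lower [2.07 to 2.57], and a count for the whole gene cannot tell whether the remaining reads came from deleted exons. How complete the deletion was across the cells was not tested. Totals were 23205734 counts in UKS and 26561600 in KS. Ratios are log2((UKS + 1)/(KS + 1)) of CPM, a scale that makes differences of low genes look smaller, and folds are plain CPM ratios. Genes past 2-fold are counted on the log2 scale, so low genes past 2-fold only as CPM ratios are not counted, which in the comparison and marker lists used here are Adm2, Cbs, Slc43a1 and Lum. Brackets hold exact 95% intervals of the ratio of counts, which cover counting error only. With 1 library per group there is no test and no replicate check. The libraries also differed in sex-linked RNA, with 6998 counts of Xist in UKS and 1 in KS, and 0 counts of the Y-linked Eif2s3y in UKS and 1486 in KS, so Usp16 deletion and differences between embryos or cultures cannot be told apart. Of 11 fibroblast markers 5 were above and 6 below a log2 ratio of 0, from Lum (52 counts in UKS and 25 in KS) and Fn1 (14581 and 8995 CPM) at the high end to Pdgfra (105.8 and 302.4 CPM) and Thy1 (35.6 and 167.6 CPM), both at least 2-fold lower. Col1a1 (1039 and 1202 CPM) and Vim (2413 and 4205 CPM) were abundant in both. The blood cell list summed to 5.23 CPM in UKS and 6.17 in KS, nearly all of it Cd68 (113 and 154 counts), with Adgre1 and Cd3e at 0 in both. The endothelial list summed to 2.14 CPM in UKS and 2.42 in KS and the epithelial list to 12.9 and 19.8 CPM, most of it Krt19 (11.4 and 16.0 CPM).

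Ratios over the whole transcriptome followed transcript length and GC content. The median log2 ratio was −0.81 over the 1300 genes lowest in GC content and 0.40 over the 1300 highest, and it was 0.38 for the 1300 shortest and −0.65 for the 1300 longest. The 35 genes had a median length of 2764 nt and a median GC content of 53.7%, against 3158 nt and 49.9% over all measured genes. Because the trend moved with the ratios, values with the trend subtracted are given beside those as counted for some summaries and some genes. Among the 35 genes and the measured comparison genes, 97 ratios left their counting intervals with the trend removed and 31 did not. A gene given only as counted may therefore have moved too. What part the trend plays in any single gene was not tested.

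Most of the ATF4 response genes stood lower in UKS. Of the 35 genes 30 had a log2 ratio below 0, where 48.1% of all measured genes did. At least 2-fold lower were 7 of them (Stc2, Slc7a5, Chac1, Trib3, Asns, Psat1 and Mthfd2), against 10.7% of all genes, and 2 were at least 2-fold higher (Slc7a8 and Cebpb), against 5.81%. The median log2 ratio was −0.59 for the 35 genes and 0.03 for all measured genes. With the length and GC trend removed, 32 of the 35 were below 0 (49.8% of all genes), 12 were at least 2-fold lower (4.97%) and 1 was at least 2-fold higher (5.49%), and the median was −0.78 against 0.00. All 7 lower genes stayed at least 2-fold lower. The 5 that joined them were Atf4, Atf5, Phgdh, Aldh18a1 and Pycr1, and Cebpb came within 2-fold. In RNA from a whole culture, fewer cells that express a gene and less of its RNA per cell cannot be told apart.

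**Figure D1:**
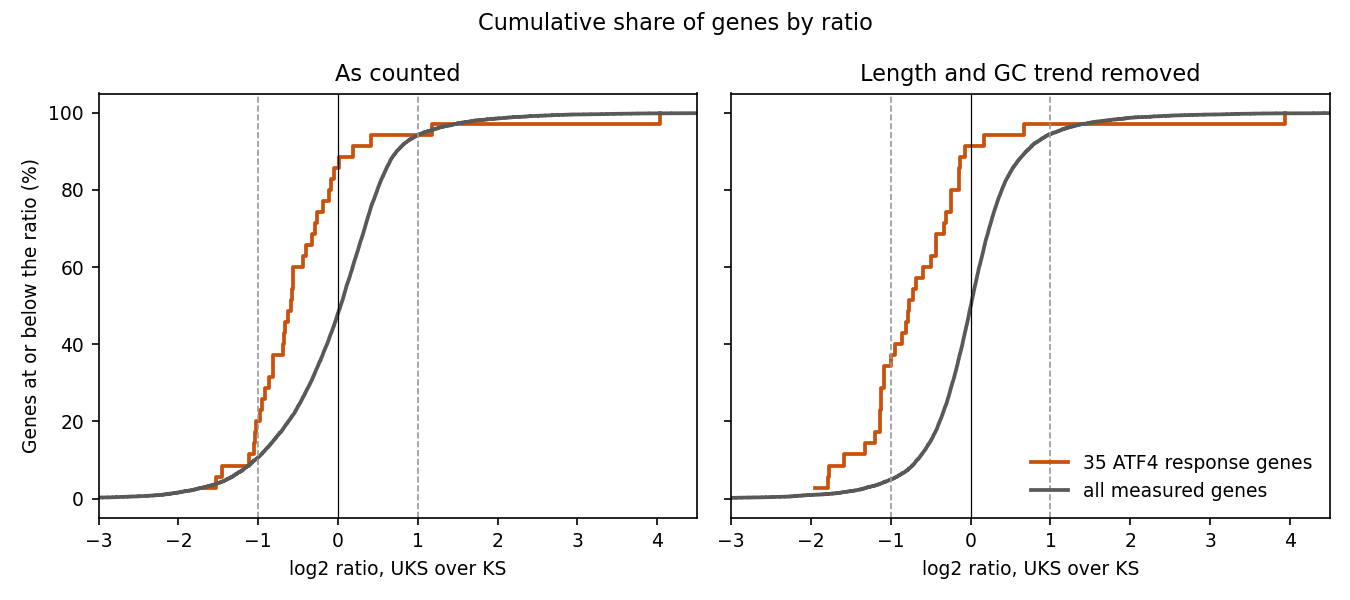
Cumulative share of genes (%) by log2 ratio of UKS over KS, for the 35 ATF4 response genes (orange) and all measured genes (grey), as counted (left) and with the length and GC trend removed (right); dashed lines mark 2-fold. The orange curve lies left of the grey one over most of its course, with medians of −0.59 against 0.03 and −0.78 against 0.00, and its last step at the right is Slc7a8.

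Among the regulators and stress targets 10 of 12 stood below 0, 3 at least 2-fold, and the median log2 ratio was −0.64. Of all measured genes 48.1% were below 0 and 10.7% were at least 2-fold lower. Atf4 itself (ENSMUSG00000042406), on the plus strand of GRCm38 chromosome 15 from 80255184 to 80257541, had 4820 counts (206.4 CPM) in UKS and 8773 counts (332.3 CPM) in KS, 1.61-fold lower [1.55 to 1.67]. Atf5, a related leucine zipper factor whose mRNA is also under translational control through eIF2, had 131.4 CPM in UKS and 231.7 CPM in KS, 1.76-fold lower [1.69 to 1.84]. Both were within 2-fold as counted and past it with the trend removed, at log2 ratios of −1.08 and −1.33. These values are RNA levels and hold nothing on how much ATF4 protein was made, which is regulated mainly in translation.

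Stc2, Chac1 and Trib3 differed more than Atf4 did. Stc2, the secreted glycoprotein stanniocalcin 2 (chromosome 11, 31357307 to 31370074, minus strand), had 75 counts (3.21 CPM) in UKS and 341 counts (12.9 CPM) in KS, 4.02-fold lower [3.12 to 5.23]. Chac1, an enzyme that degrades glutathione (chromosome 2, 119351229 to 119354381, plus strand), had 17.3 CPM in UKS and 49.1 CPM in KS, 2.85-fold lower [2.54 to 3.19]. Trib3, a pseudokinase that binds ATF4 and restrains it, had 28.2 CPM in UKS and 62.4 CPM in KS, 2.21-fold lower [2.02 to 2.42]. For Stc2 2.74% of all measured genes had a lower ratio, for Chac1 4.34% and for Trib3 8.71%, so these 3 lay toward the low end of the transcriptome. With the trend removed the shares were 1.22% for Stc2, 0.985% for Chac1 and 1.69% for Trib3. Vldlr, a lipoprotein receptor that ATF4 raises under stress, had 26.7 CPM in UKS and 51.4 CPM in KS, a log2 ratio of −0.92 that was −0.14 with the trend removed; its transcript is long (7971 nt) and AT-rich (43.8% GC).

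Other regulators lay closer to equal levels as counted. With the trend removed the log2 ratios were −0.82 for Ddit3, −0.44 for Ppp1r15a and −0.50 for Eif4ebp1. For Ddit3 7.05% of all measured genes then had a lower ratio. Ddit3, which encodes the factor CHOP that ends in cell death when the response persists, had 46.6 CPM in UKS and 57.4 CPM in KS (log2 −0.29). Ppp1r15a, which brings a phosphatase to eIF2 and so ends the response, had 49.9 CPM in UKS and 53.9 CPM in KS, a ratio whose interval included equal levels. Eif4ebp1, an inhibitor of the cap-binding factor eIF4E, had 110.4 CPM in UKS and 146.1 CPM in KS (log2 −0.40). Nupr1, a small nuclear stress protein, had 860 counts in UKS and 850 in KS; its log2 ratio of 0.19 became −0.33 with the trend removed, so its direction turned with that correction.

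The C/EBP partners of ATF4 stood on opposite sides as counted. Cebpb had 902 counts (38.6 CPM) in UKS and 435 counts (16.5 CPM) in KS, 2.34-fold higher [2.09 to 2.63]. Cebpg had 39.4 CPM in UKS and 59.9 CPM in KS, 1.52-fold lower [1.40 to 1.65]. Its log2 ratio of −0.59 came to −0.08 with the trend removed, near equal levels. Per kb of transcript, Cebpg stood at 8.36 CPM per kb in UKS against 25.7 for Cebpb there, and at 12.7 CPM per kb in KS against 10.96 for Cebpb, so the order of the pair differed between the libraries. The Cebpb transcript is GC-rich (67.2%), and its log2 ratio of 1.18 came to 0.67 with the trend removed. Of its exon bases 20.7% overlap Tmem189 on the other strand, a gene with 1938 counts in UKS and 1238 in KS; whether counting used strand is not given in the sources used here, so reads of the pair cannot be told apart.

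**Figure D2:**
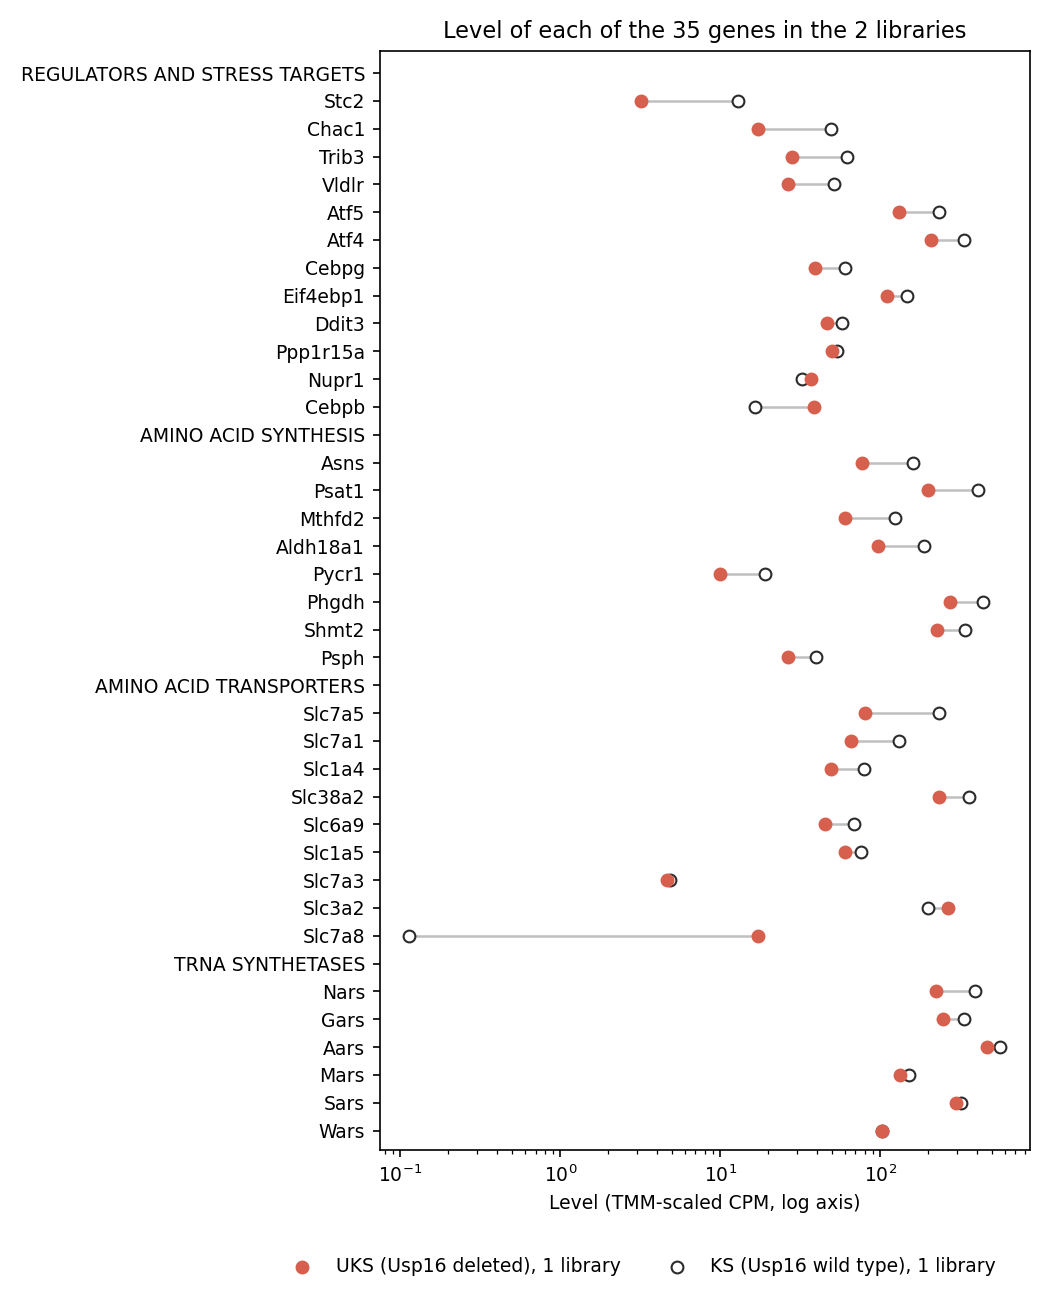
Level of each of the 35 genes in UKS (filled) and KS (open) in TMM-scaled CPM on a log axis, grouped by role, 1 library each. Filled points lie left of open ones for 30 genes; Slc7a8, at 17.2 CPM in UKS and 0.114 in KS, is the widest pair.

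The 8 enzymes of amino acid synthesis all stood lower in UKS, between log2 −1.05 and −0.56, with a median of −0.91. Summed over the 8 genes the level was 969.5 CPM in UKS and 1715 CPM in KS, 1.77-fold lower. Asns, which makes asparagine (chromosome 6, 7675169 to 7693254, minus strand), had 1797 counts (77.0 CPM) in UKS and 4241 counts (160.6 CPM) in KS, 2.09-fold lower [1.97 to 2.21]. The Asns window holds one of the matches printed above, 23 bases before the start.

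Serine is made from a glycolytic intermediate in 3 steps, and the 3 enzymes differed in extent as counted. With the trend removed they lay closer together, at log2 ratios of −1.14 for Phgdh, −1.09 for Psat1 and −0.95 for Psph. Phgdh, the first, had 274.9 CPM in UKS and 437.9 CPM in KS, 1.59-fold lower [1.55 to 1.64]. Psat1, the second, had 198.0 CPM in UKS and 409.9 CPM in KS, 2.07-fold lower and a log2 ratio of −1.05. Psph, the last, had 26.3 CPM in UKS and 39.4 CPM in KS, 1.497-fold lower [1.35 to 1.66]. Of its exon bases 10.4% overlap Cct6a on the other strand, a gene with 6220 counts in UKS and 8582 in KS. Psph itself had 615 and 1041 counts. Whether counting used strand is not given, so reads of the pair cannot be told apart. Per kb of transcript the order was Phgdh, Psat1 and Psph in both libraries, with 145.2, 75.7 and 15.2 CPM per kb in UKS and 231.3, 156.6 and 22.8 CPM per kb in KS.

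Shmt2 and Mthfd2 carry serine into mitochondrial glycine and one-carbon units. Shmt2 had 226.6 CPM in UKS and 336.6 CPM in KS, 1.49-fold lower [1.44 to 1.54]. Mthfd2 had 59.8 CPM in UKS and 123.4 CPM in KS, 2.06-fold lower [1.94 to 2.20]. Their relatives, singled out after their values had been seen, were divided. The cytosolic Shmt1 had a log2 ratio of 0.36, the cytosolic Mthfd1 −0.06 and the mitochondrial Mthfd1l 0.09. Mthfd2l, a less abundant mitochondrial relative of Mthfd2, was lower too, at −0.49 (1.44-fold lower [1.22 to 1.70]). The ratio of Shmt2 was 0.93 log2 units below that of Shmt1. That of Mthfd2 was 1.12 below that of Mthfd1l and 0.54 below that of Mthfd2l.

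Proline is made from glutamate by Aldh18a1 and then by a reductase. Aldh18a1 had 96.9 CPM in UKS and 188.1 CPM in KS, 1.94-fold lower [1.85 to 2.04]. Pycr1, the reductase among the 35 genes, had 233 counts (9.98 CPM) in UKS and 501 counts (19.0 CPM) in KS, 1.90-fold lower [1.62 to 2.23]. Another reductase, Pycrl, named after its values had been seen, had 60.3 CPM in UKS and 37.7 CPM in KS, 1.60-fold higher [1.47 to 1.74]. Its log2 ratio of 0.66 came to 0.14 with the trend removed, while that of Pycr1, −0.86 as counted, came to −1.12. Per kb of transcript Pycr1 stood at 0.0761 of the level of Pycrl in UKS and at 0.232 of it in KS.

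**Figure D3:**
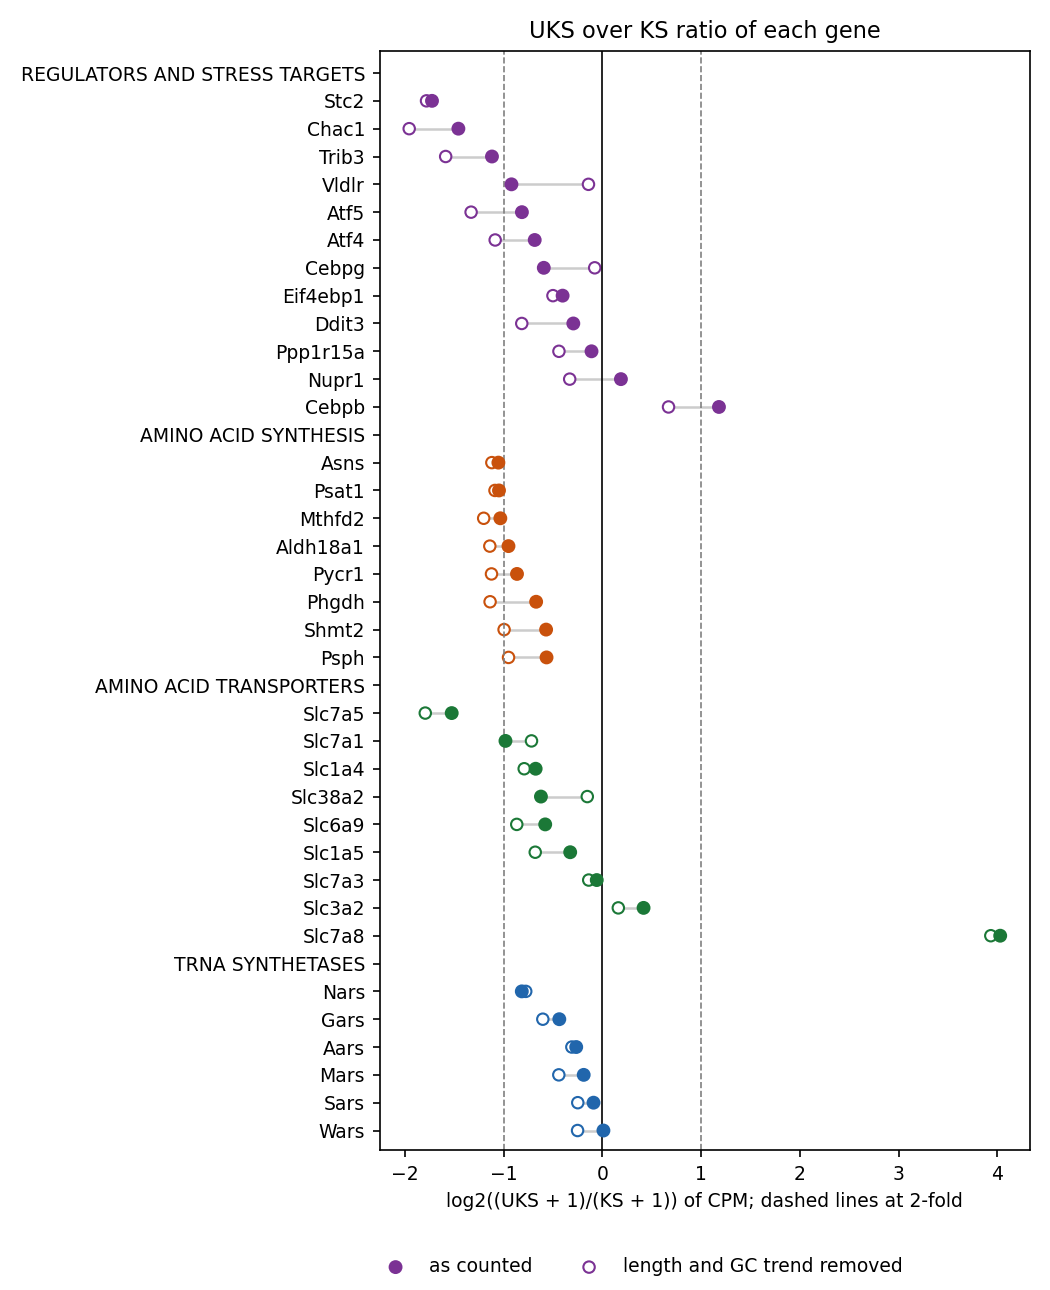
log2 ratio of UKS over KS for each of the 35 genes by role, as counted (filled) and with the length and GC trend removed (open); dashed lines mark 2-fold. The 8 synthesis enzymes lie between −1.05 and −0.56 as counted, and the open points of most genes lie further left, with Vldlr, Cebpg, Slc38a2 and Slc7a1 among those that moved right.

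The transporters held both the lowest ratio but one and the highest ratio of the 35 genes, and their median was −0.58. Slc7a5, which exchanges leucine and other large neutral amino acids (chromosome 8, 121881150 to 121907694, minus strand), had 1875 counts (80.3 CPM) in UKS and 6149 counts (232.9 CPM) in KS, 2.90-fold lower [2.75 to 3.06]. Slc7a8, a close relative that also carries neutral amino acids (chromosome 14, 54722209 to 54781946, minus strand), had 401 counts (17.2 CPM) in UKS and 3 counts (0.114 CPM) in KS, a ratio of 151 [51.3 to 736]. The KS count is at the floor of 3 counts, with an exact Poisson interval of 0.619 to 8.77, so the size of that ratio rests on very few reads. Slc3a2, the heavy chain that both need to reach the cell surface, had 264.7 CPM in UKS and 197.9 CPM in KS, 1.34-fold higher [1.29 to 1.39].

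The partner chains of Slc3a2 are known, and 5 of them were in the lists: Slc7a5, Slc7a6, Slc7a7, Slc7a8 and Slc7a11, of which Slc7a6 and Slc7a7 were singled out after their values had been seen. Per kb of transcript their levels summed to 49.6 CPM per kb in UKS and 84.6 in KS, while Slc3a2 stood at 94.1 CPM per kb in UKS and 70.3 in KS. Slc7a5 made up 46.1% of the partner sum in UKS and 78.3% in KS. Slc7a11, the cystine transporter, made up 17.4% in UKS and 4.45% in KS, and Slc7a8 8.48% and 0.0329%. Slc7a6 kept nearly the same level, at 13.4 CPM per kb in UKS and 13.7 in KS. Slc7a5 was the most abundant of the 5 partners in both libraries.

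**Figure D4:**
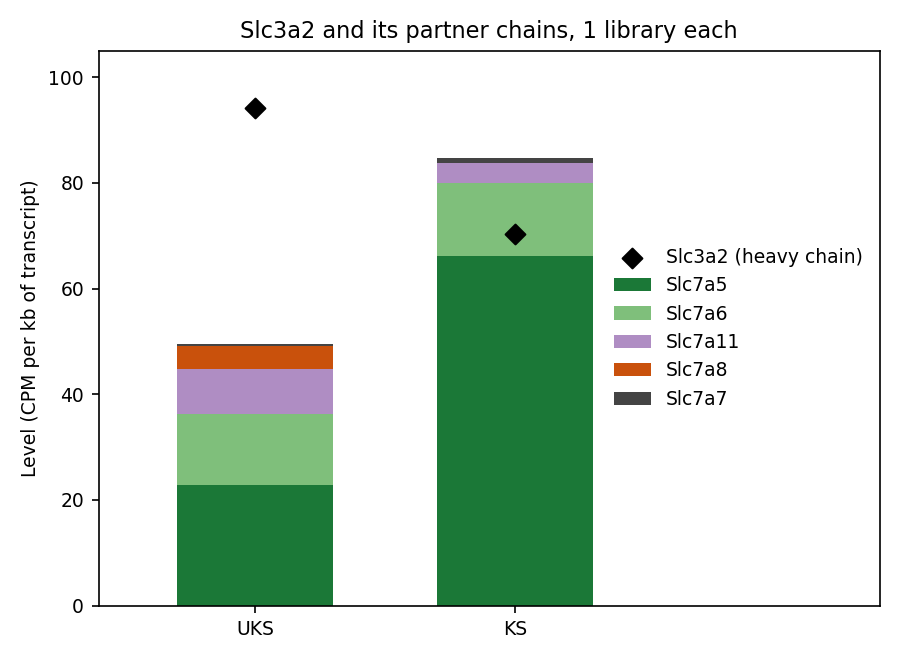
Level per kb of transcript (CPM per kb) of the 5 partner chains of Slc3a2, stacked, in UKS (left) and KS (right), with Slc3a2 itself as a diamond; 1 library each, bars start at 0. The partner chains sum to 49.6 in UKS and 84.6 in KS, while the diamond is at 94.1 in UKS and 70.3 in KS.

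Cationic amino acid transporters also went different ways. Slc7a1, which takes up arginine and lysine, had 65.6 CPM in UKS and 130.4 CPM in KS, 1.99-fold lower [1.87 to 2.11], with a log2 ratio of −0.98 just inside 2-fold. Slc7a3, an X-linked relative, was low in both libraries at 108 counts in UKS and 128 in KS, and its interval included equal levels. Slc7a2, which is not among the 35 genes, had 136.1 CPM in UKS and 28.9 CPM in KS, 4.70-fold higher [4.34 to 5.09]. Per kb of transcript Slc7a1 stood at 0.531 of the level of Slc7a2 in UKS and at 4.97 times that level in KS.

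The sodium-coupled carriers were lower by smaller amounts than Slc7a1 as counted. With the trend removed the log2 ratios were −0.87 for Slc6a9, −0.79 for Slc1a4 and −0.68 for Slc1a5, beside −0.72 for Slc7a1. Slc38a2, which takes up alanine, glutamine and other small neutral amino acids, had 233.3 CPM in UKS and 359.4 CPM in KS (log2 −0.62, and −0.15 with the trend removed). Slc1a4 had 49.3 CPM in UKS and 79.4 CPM in KS, 1.61-fold lower [1.496 to 1.73], and the glutamine carrier Slc1a5 had 60.0 CPM in UKS and 75.4 CPM in KS, 1.26-fold lower [1.17 to 1.35]. The glycine transporter Slc6a9 had 45.3 CPM in UKS and 68.1 CPM in KS, 1.504-fold lower [1.39 to 1.62]. Of the exon bases of Slc6a9, 27.8% overlap Ccdc24 on the other strand, a gene with 37 counts in UKS and 76 in KS, few beside the 1057 and 1797 of Slc6a9.

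The 6 tRNA synthetases differed least, with a median log2 ratio of −0.23, or −0.37 with the trend removed. None was past 2-fold, a cutoff that 5.81% of all genes passed upward and 10.7% downward. A set of 6 genes is too small to set a count of none apart from these shares. Nars, which charges asparagine tRNA, had 223.0 CPM in UKS and 393.0 CPM in KS, 1.76-fold lower [1.70 to 1.82]. Gars, for glycine, had 247.4 CPM in UKS and 334.8 CPM in KS, 1.35-fold lower [1.31 to 1.40]. Nars and Gars were the lowest of the 6, and the other 4 lay between log2 −0.26 and 0.01.

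Aars, for alanine, had 468.0 CPM in UKS and 562.2 CPM in KS (log2 −0.26), and Mars, for methionine, had 133.6 CPM in UKS and 152.4 CPM in KS (log2 −0.19). Of the exon bases of Aars 14.3% overlap Exosc6 on the same strand, a gene with 96 counts in UKS and 0 in KS. Sars, for serine, had 298.6 CPM in UKS and 317.7 CPM in KS (log2 −0.09). Wars, for tryptophan, had 103.2 CPM in UKS and 102.4 CPM in KS, with an interval that included equal levels; its log2 ratio of 0.01 was on the other side of 0 with DESeq2 size factors and with the trend removed.

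The other cytosolic synthetases, 14 genes outside the 35, had a median of −0.49, with 10 below 0 (48.1% of all genes). At least 2-fold lower were 2 of them, against 10.7% of all genes. These were Eprs (169.0 CPM in UKS and 364.7 in KS, 2.16-fold lower) and Iars (148.6 and 309.0 CPM, 2.08-fold lower), and with the trend removed neither was past 2-fold. Mitochondrial synthetases, 17 genes, had a median of 0.14 with 8 below 0 (48.1% of all genes). None of the 17 was past 2-fold, against 5.81% of all genes upward and 10.7% downward. The 2 furthest from 0 were Lars2 (84.1 CPM in UKS and 43.4 in KS, log2 0.94) and Fars2 (20.1 and 13.0 CPM, log2 0.60). The median over all 20 cytosolic synthetases was −0.43, and −0.46 after subtracting the trend; over the mitochondrial ones it was 0.14, and 0.04 after subtraction.

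**Figure D5:**
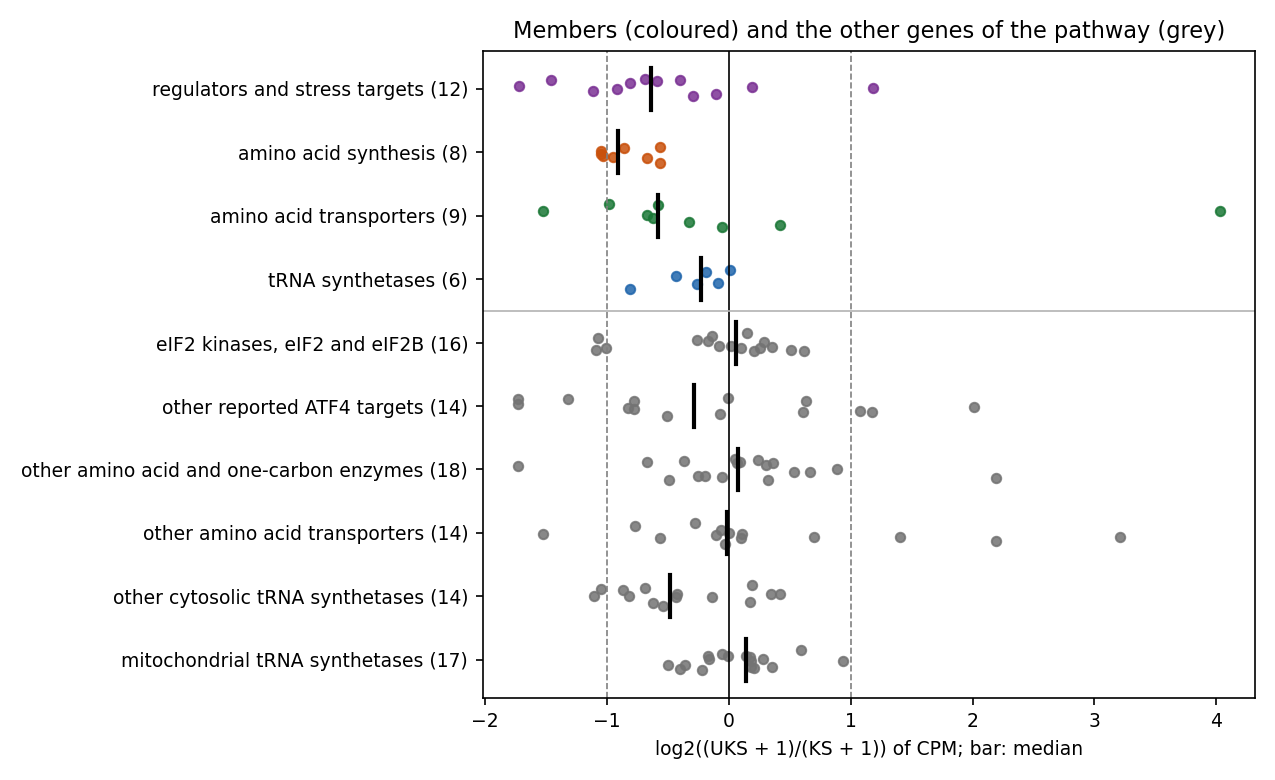
log2 ratio of UKS over KS of each measured gene in the 4 role groups (coloured) and in 6 lists of other genes of the pathway (grey), with the number of genes in brackets; black bars are medians and dashed lines 2-fold. Medians run from −0.91 for amino acid synthesis to 0.14 for the mitochondrial tRNA synthetases.

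Other reported ATF4 targets were divided. Of 15 listed genes 14 had a mean of at least 1 CPM, with a median log2 ratio of −0.29. In UKS 3 of the 14 stood 2-fold or more above KS (5.81% of all genes) and 3 stood 2-fold or more below (10.7%). Lower were Aldh1l2, a mitochondrial folate enzyme (42.5 CPM in UKS and 143.6 in KS, 3.38-fold [3.15 to 3.62]), Cth, which makes cysteine (121 and 514 counts, 3.76-fold [3.08 to 4.62]), and Gpt2, a mitochondrial alanine aminotransferase (26.8 and 68.5 CPM, 2.56-fold [2.33 to 2.80]). Higher were the secreted cytokine Gdf15 (448 counts in UKS and 106 in KS, 4.78-fold [3.86 to 5.96]), Slc7a11 (79.7 and 34.8 CPM, 2.29-fold [2.12 to 2.48]) and Ddit4, an inhibitor of the growth kinase mTORC1 (131.5 and 61.7 CPM, 2.13-fold [2.005 to 2.26]). As background, Gdf15 is also a known target of p53, Slc7a11 of NRF2 and Ddit4 of the hypoxia response. With the trend removed Ddit4 came within 2-fold at 0.58, while Slc7a11, whose transcript is long and AT-rich, stood at 2.30. Fgf21, below the level minimum, had 7 counts in UKS and 30 in KS.

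The upstream machinery was 16 genes of the eIF2 kinases, eIF2, its exchange factor eIF2B and their partners. The 16 genes had a median of 0.06, with 9 above 0 and 7 below (48.1% of all genes). Past 2-fold were 3 of the 16, all lower, where 10.7% of all measured genes were at least 2-fold lower. At least 2-fold lower were the GCN2 gene Eif2ak4 (26.8 CPM in UKS and 54.8 in KS, 2.05-fold), the interferon-inducible kinase gene Eif2ak2 (94.5 and 199.6 CPM, 2.11-fold) and the eIF2 beta subunit gene Eif2s2 (117.1 and 250.5 CPM, 2.14-fold). With the trend removed none of these 3 was past 2-fold, and Impact, an inhibitor of GCN2 (115.8 CPM in UKS and 75.2 in KS), was higher at log2 1.12 in place of 0.62. The eIF2 gamma subunit has an X-linked and a Y-linked gene. Eif2s3x had 5043 counts in UKS and 5622 in KS (216.0 and 213.0 CPM), whereas Eif2s3y had 0 and 1486, so that both together stood at 216.0 CPM in UKS and 269.3 CPM in KS, and Eif2s3y made up 20.9% of the KS sum.

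Among 18 other amino acid and one-carbon enzymes the median was 0.08. At least 2-fold higher was 1 gene (5.81% of all genes) and at least 2-fold lower was 1 (10.7%). Ass1, which makes the precursor of arginine, had 346.7 CPM in UKS and 75.1 CPM in KS, 4.61-fold higher [4.39 to 4.85]. Of 15 other transporters 14 were measured, with a median of −0.02. At least 2-fold higher were 3 of them (5.81% of all genes) and 1 was at least 2-fold lower (10.7%). The leucine carrier Slc43a2 (619 counts in UKS and 52 in KS, 13.5-fold [10.1 to 18.2]), Slc7a2 as given above and the glutamate carrier Slc1a3 (50.9 and 18.6 CPM, 2.74-fold [2.47 to 3.05]) were higher, and Slc38a4 was lower (34.7 and 101.7 CPM, 2.93-fold [2.71 to 3.17]). Slc1a1, below the level minimum, had 10 counts in UKS and 3 in KS.

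Set beside the promoter letters, the 9 genes whose window held TGATGNAA had ratios between −1.46 for Chac1 and 0.19 for Nupr1, with 8 of 9 below 0 and a median of −0.86. The 19 genes whose windows did not hold it had 16 below 0 and a median of −0.59, which included Stc2 at −1.72 and Slc7a8 at 4.03. With the trend removed the medians were −0.79 for the 9 genes and −0.87 for the 19, so the order of the 2 sets turned with that correction.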

How the data were processed

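For each library the authors deposited 1 table of expected counts (estimated reads per gene, with no scaling). Per the submitters' processing notes, HISAT2, StringTie and the build GRCm38.p5 were used, in roles that are not stated; how reads were counted, and whether by strand, is not given in the sources used here. Counts were rounded to whole numbers (21.5% of genes above 0 were not whole in UKS and 23.1% in KS). TMM factors came from edgeR 4.0.16 in R 4.3.3, with a pseudocount of 1 CPM and a minimum mean of 1 CPM. At these depths 3 counts equal 0.128 CPM in UKS and 0.114 CPM in KS. Intervals are exact binomial (Clopper-Pearson) or Poisson ones from scipy 1.17.1. The length and GC trend was fitted by robust regression (statsmodels 0.14.6, Tukey's biweight, cubic terms) on 12854 measured genes outside the lists, with the longest coding transcript of GENCODE M21, in which 51633 gene identifiers were found. Only the 2-fold cutoff and the trend fit were run on simulated data, Poisson counts that hold no variation between cultures.

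The 35 genes and all lists were chosen with earlier results of these data known. In the text stand all 35 genes, and of each other list the genes past 2-fold, or else the 2 with the largest ratio. Of the symbols listed, 3 were not found. Another engineered change that both lines carry, and some results that this rule takes in, are not reported here. Paralogs and pseudogenes may have shared reads. Alternatives were DESeq2 1.42.0 size factors, total counts, a pseudocount of 0.5 CPM, no level filter and the trend removed.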

Additional observations from a re-analysis of the deposited data

How the results depend on the processing

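With DESeq2 size factors, total counts alone, a pseudocount of 0.5 CPM or no level filter, the 35 ratios stayed within their counting intervals except that of Slc7a8, 4.03 as reported and 4.85 with a pseudocount of 0.5 CPM, and the count of genes at least 2-fold lower was 7, or 8 with DESeq2 size factors, which added Slc7a1. The median ratio over all genes shifted by at most 0.06. Removing the length and GC trend gave 12 lower and 1 higher gene, a median of −0.78 for the 35 genes, −1.12 for synthesis, −0.68 for transporters, −0.37 for the 6 synthetases, −0.38 for other ATF4 targets, −0.032 for other enzymes and 0.30 for other transporters. Without a level filter the median of other ATF4 targets was −0.51, since Fgf21 entered. Subtracting the trend also subtracts any real difference that happens to follow transcript length or GC content. No paired analysis was possible because each line gave 1 library. Depth limits Slc7a8 in KS, with 3 counts.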
